A study of Arabidopsis thaliana with 14 samples.

Results

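The genes described here are the 60 Arabidopsis genes whose transcript levels lay furthest below both kinds of control leaf after 3 h and 24 h of gibberellic acid (GA3) delivered by a silk microneedle. They were chosen by a score on log2(CPM + 1), where CPM is a gene's read count per 1000000 reads counted in genes. The score is the lowest value among the 3 untreated and 3 mock libraries minus the highest value among the 3 GA3 libraries of 3 h and the 3 of 24 h. The 60 highest scores of 34218 genes were taken. A positive score means that all 6 GA3 libraries lay below all 6 control libraries, which held for 107 genes, while 78 genes had all 6 GA3 libraries above all 6 control libraries. GA3 at 3 h and 24 h against both controls was thus what the choice used, and it is described below without a test.

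The libraries of 168 h took no part in that choice. Leaves stayed 3 h (n = 3), 24 h (n = 3) or 168 h (n = 2) after injection of needles loaded with 15 mM GA3, 24 h (n = 3) after injection of empty silk needles (mock), or were taken untreated at 0 h (n = 3). All were rosette leaves of ft-10 plants, 30 days old at the start of the experiment and grown in soil at 22 °C with 16 h of light and 8 h of dark; the ft-10 allele carries an insertion in FT, the florigen gene, and flowers late. The series has no wild type, and mock leaves were sampled at 24 h alone, so needle, GA3 and time cannot be told apart at 3 h and 168 h. Replicates are biological per the design text, which does not say whether they came from separate plants. Counts of FT itself, at 46.4, 38.0 and 52.5 CPM at 3 h, 9.23, 11.7 and 18.3 CPM at 24 h and 9.09 and 7.12 CPM at 168 h of GA3, against 15.1, 29.0 and 60.5 CPM in mock and 4.72, 4.10 and 3.18 CPM in untreated leaves, cover the whole gene, so they do not check the allele. FT was far from membership, with a score of -3.68.

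Gibberellin is a growth hormone that binds GID1 receptors, and the bound receptors send DELLA proteins, repressors of growth, to be degraded. GA20OX and GA3OX oxidases make bioactive gibberellin, and DELLA proteins keep their genes and those of the receptors active, so added gibberellin lowers them in a feedback loop. In Arabidopsis the hormone also promotes flowering, in part through SPL transcription factors, which the microRNA miR156 holds down in young plants.

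The 3 highest-ranked genes each had a known tie to this hormone or to flowering. SPL4 (AT1G53160), a SQUAMOSA-promoter-binding transcription factor that promotes the floral transition, lies at chr1:19806263-19807705 on the plus strand of TAIR10.1. Its exon holds a site for miR156, shown here because it is the best known control of SPL4 transcripts. The microRNA is given 5′ to 3′ from chr2:10676534-10676553 on the minus strand, with its seed (bases 2 to 8) in capitals, and the site from chr1:19807090-19807109 on the plus strand, with the 18 of 20 bases that pair with the microRNA in capitals.
ath-miR156a-5p: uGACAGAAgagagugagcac
SPL4 site: cTGCTCtCTCTCTTCTGTCA
MicroRNAs were not measured in these libraries. MIR156i, another gene named for this microRNA, overlaps SPL4 on the opposite strand. Opposite-strand reads made up 0.440% of the reads of SPL4. AHL15 (AT3G55560), named AT-hook protein of GA feedback 2 in RefSeq, lies at chr3:20604616-20606650 on the minus strand. GA3OX1 (AT1G15550), the enzyme that makes bioactive gibberellin, lies at chr1:5344388-5346342 on the minus strand. The 250 bases before the annotated start of these 2 genes are shown since both genes belong to gibberellin feedback by name or known role. Capitals mark TTGAC (the W-box, bound by WRKY factors) and TTTGTC (the core read by IDD factors, some of which bind DELLA proteins) on either strand, and each window is printed 5′ to 3′ along its gene's strand.
AHL15, chr3:20606651-20606900: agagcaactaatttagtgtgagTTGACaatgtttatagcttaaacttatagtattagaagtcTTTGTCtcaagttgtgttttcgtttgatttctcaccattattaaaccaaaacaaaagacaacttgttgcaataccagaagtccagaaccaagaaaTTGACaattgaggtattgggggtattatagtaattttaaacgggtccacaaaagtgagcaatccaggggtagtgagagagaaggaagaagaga
GA3OX1, chr1:5346343-5346592: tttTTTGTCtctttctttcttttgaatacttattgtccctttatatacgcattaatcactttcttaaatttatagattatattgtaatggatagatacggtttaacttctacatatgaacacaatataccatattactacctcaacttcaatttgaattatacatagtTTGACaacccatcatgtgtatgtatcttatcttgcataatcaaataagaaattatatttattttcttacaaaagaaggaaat

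Both motifs had shares among the 60 genes close to those in all genes. Windows of 250 bases held TTGAC on either strand in 27 of 59 members (45.8%) and in 44.3% of 32546 genes, and TTTGTC in 16 of 59 (27.1%) and in 23.8%. The gibberellin response element TAACAAA was found in 10.2% of member windows and 15.9% of all. Figures for the G-box CACGTG were 3.39% and 5.9%, for the abscisic acid response core ACGTGNC 6.78% and 7.88%, and for CGTAC, the core that SPL proteins bind, 8.47% and 11%. The other motifs searched, also on both strands, were AAATATCT (1.69% of members and 4.56% of all), TGGGCC (8.47% and 12.5%), AAACCCTA (1.69% and 4.61%) and GCCGCC (1.69% and 1.9%). A match is a run of letters, not a bound site.

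SPL4 had the highest score, 1.53, with AHL15 next at 0.737. Its level was 0.572, 1.20 and 1.06 CPM in the libraries of GA3 at 3 h and 0.562, 1.14 and 1.03 CPM at 24 h, against 9.29, 7.14 and 5.41 CPM in mock and 9.09, 10.3 and 5.36 CPM in untreated leaves (replicates 1 to 3 in order, here and below). The highest GA3 library thus held 22.3% of the lowest control library, the widest gap among the 60, with GA3OX1 close at 23.8%. By the GA3 mean as a share of the control mean, SPL4 stood at 11.9%. GA3OX1 (5.27%), PYL6 (7.06%) and OCT2 (7.56%) were lower by that measure. The score adds 1 to CPM, which narrows differences between low levels. AHL15 stood at 2.86, 3.19 and 6.37 CPM at 3 h and 5.29, 6.26 and 8.31 CPM at 24 h of GA3, against 14.5, 22.4 and 26.1 CPM in mock and 23.0, 24.3 and 29.3 CPM in untreated leaves. GA3OX1 was near the limit of detection in GA3 leaves, with 3 counts over the 3 libraries of 3 h and 11 over those of 24 h, against 129 counts over the 3 mock libraries and 120 over the 3 untreated ones. In CPM it stood at 0, 0 and 0.127 at 3 h and at 0, 0.237 and 0.257 at 24 h of GA3, against 2.98, 1.08 and 2.42 in mock and 2.02, 2.21 and 1.09 in untreated leaves. Beyond these 3, scores were small: 34 members scored 0.1 to 0.35 and 23 under 0.1.

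**Figure D1:**
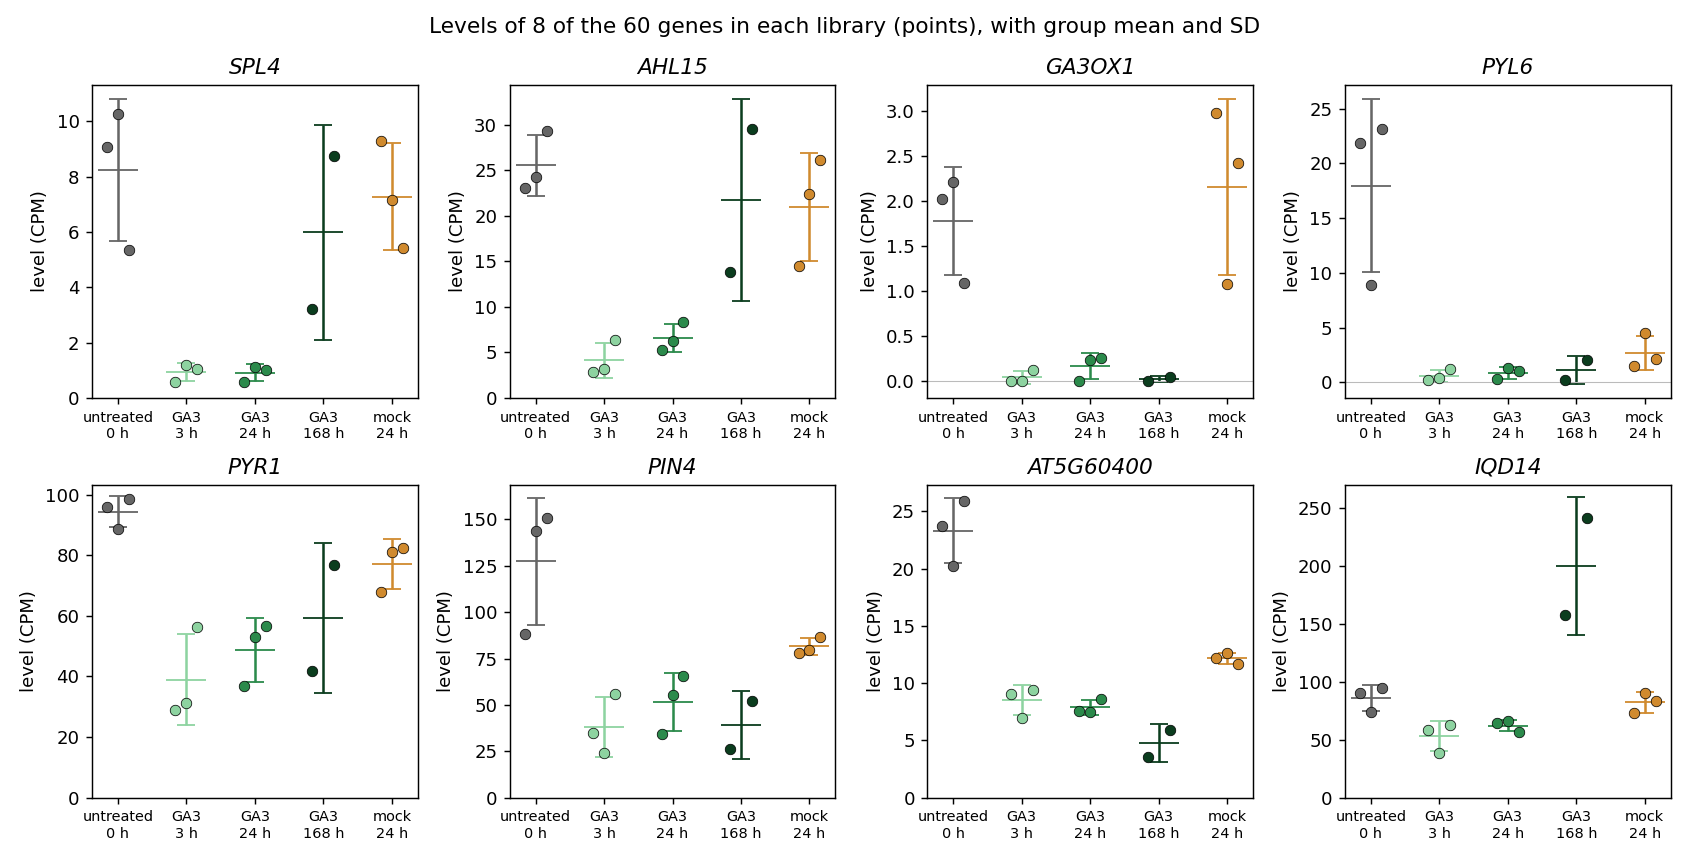
Levels in CPM (y axis, linear) of 8 of the 60 genes in each group (x axis); points are libraries, horizontal marks group means and bars SD (n = 3, or 2 at 168 h). SPL4, AHL15 and GA3OX1 lie low at 3 h and 24 h of GA3 and high in mock and untreated leaves, PYL6 is also low in mock leaves, and IQD14 is highest at 168 h.

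Hormone genes were spread through the list. PYR1 and PYL6 encode abscisic acid receptors. PYR1 (AT4G17870) stood at 29.1, 31.3 and 56.2 CPM at 3 h and 36.8, 52.9 and 56.7 CPM at 24 h of GA3, against 67.7, 81.2 and 82.4 CPM in mock and 96.0, 88.6 and 98.5 CPM in untreated leaves. PYL6 (AT2G40330) stood at 0.191, 0.399 and 1.19 CPM at 3 h and 0.281, 1.33 and 0.985 CPM at 24 h of GA3, against 1.49, 4.47 and 2.13 CPM in mock and 21.9, 8.86 and 23.1 CPM in untreated leaves. Its 3 mock libraries lay above all GA3 libraries, replicate 1 by little, and below all untreated ones. PIN4 (AT2G01420), an auxin efflux carrier, stood at 35.1, 24.2 and 55.9 CPM at 3 h and 34.4, 55.2 and 65.4 CPM at 24 h of GA3, against 78.1, 79.9 and 86.7 CPM in mock and 88.3, 144 and 151 CPM in untreated leaves. ARR4, a cytokinin response regulator, held 57.8% of the untreated mean at 3 h of GA3 and 68.6% of the mock mean at 24 h. For DWF5, a sterol reductase of brassinosteroid synthesis, these shares were 65.3% and 77.8%. The shares were 60.7% and 55.7% for DEAR2, a DREB-type repressor.

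By RefSeq's names, the members described next encode 1 wall protein and 6 membrane carriers. The extensin-like AT2G43150, whose kind of protein stiffens the cell wall, had the highest level per length in control leaves of all members, 199 CPM per kb of exon. It stood at 42.0, 49.5 and 73.5 CPM at 3 h and 103, 113 and 52.1 CPM at 24 h of GA3, against 160, 295 and 271 CPM in mock and 136, 350 and 470 CPM in untreated leaves. ADS1 and AT4G21903 are MATE efflux proteins, ABCG30 and ABCG42 ABC transporters, OCT2 an organic cation transporter and CHX2 a cation/H+ exchanger. ADS1 stood at 43.2% of the untreated mean at 3 h and 37.8% of the mock mean at 24 h of GA3. For ABCG42 these were 21.9% and 28.8%, and for ABCG30 37.0% and 51.5%. ABCG30 and ABCG42 overlap on the same strand, so their reads may have been split between them, and OCT2 and CHX2 lie within 20 kb of each other; no other members are such neighbours.

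By known role or RefSeq family name, several members, given as examples and not as a complete group, relate to RNA or chromatin. For AT2G35920, AT4G17080 and AT1G67950 this rests on the RefSeq family name only. AGO1, the Argonaute that carries microRNAs, stood at 97.3, 90.7 and 108 CPM at 3 h and 121, 115 and 114 CPM at 24 h of GA3, against 127, 142 and 127 CPM in mock and 165, 144 and 151 CPM in untreated leaves. The highest GA3 library and the lowest control library of AGO1 were close. BET10 (a bromodomain protein), NRPE5 (a subunit of RNA polymerase V), MSI3 (a WD-40 protein), the RNA helicase AT2G35920, the SET7/9-family methyltransferase AT4G17080 and the RNA-binding-family gene AT1G67950 are further examples. CRS1, named in RefSeq for a maize chloroplast splicing factor, TOC120, of the chloroplast protein import complex, and the pentatricopeptide protein AT3G11460 relate to organelles. IQD14 and IQD32 (listed as iqd32) carry the calmodulin-binding IQ motif, MC3 is a metacaspase, QSOX1 a sulfhydryl oxidase, RL5 a RAD-like MYB factor and POB1 a BTB-domain protein.

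Over the 60 genes, the mean of the 6 GA3 libraries lay between 5.27% and 85.0% of the mean of the 6 control libraries (median 50.2%). It was under 50% in 29 members, 50% to 75% in 26 and 75% or more in 5. The highest GA3 library held a median of 89.3% of the lowest control library, and at most 95.9%. Close to the limit, AT1G75730, AT5G49440 and AT3G14410 were ranked 58 to 60, and AT1G19397, ATMAP65-6 and AT5G48775 were ranked 61 to 63 and left out. AT3G14410, the last one in, stood at 16.8 to 21.6 CPM in GA3 leaves and 22.5 to 35.8 CPM in control leaves, and AT1G19397, the first one out, at 1.37 to 1.95 CPM and 2.07 to 3.00 CPM. Membership rested on single libraries: repeating the choice without mock replicate 1 kept 21 of the 60, and without GA3 3 h replicate 3 also 21. With TMM-scaled library sizes (a scaling that sets aside genes with extreme ratios), 46 of the 60 still had all GA3 libraries below all controls, the first 20 in rank among them, and 40 were chosen again. SPL4 ranked first under each alternative tried.

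**Figure D2:**
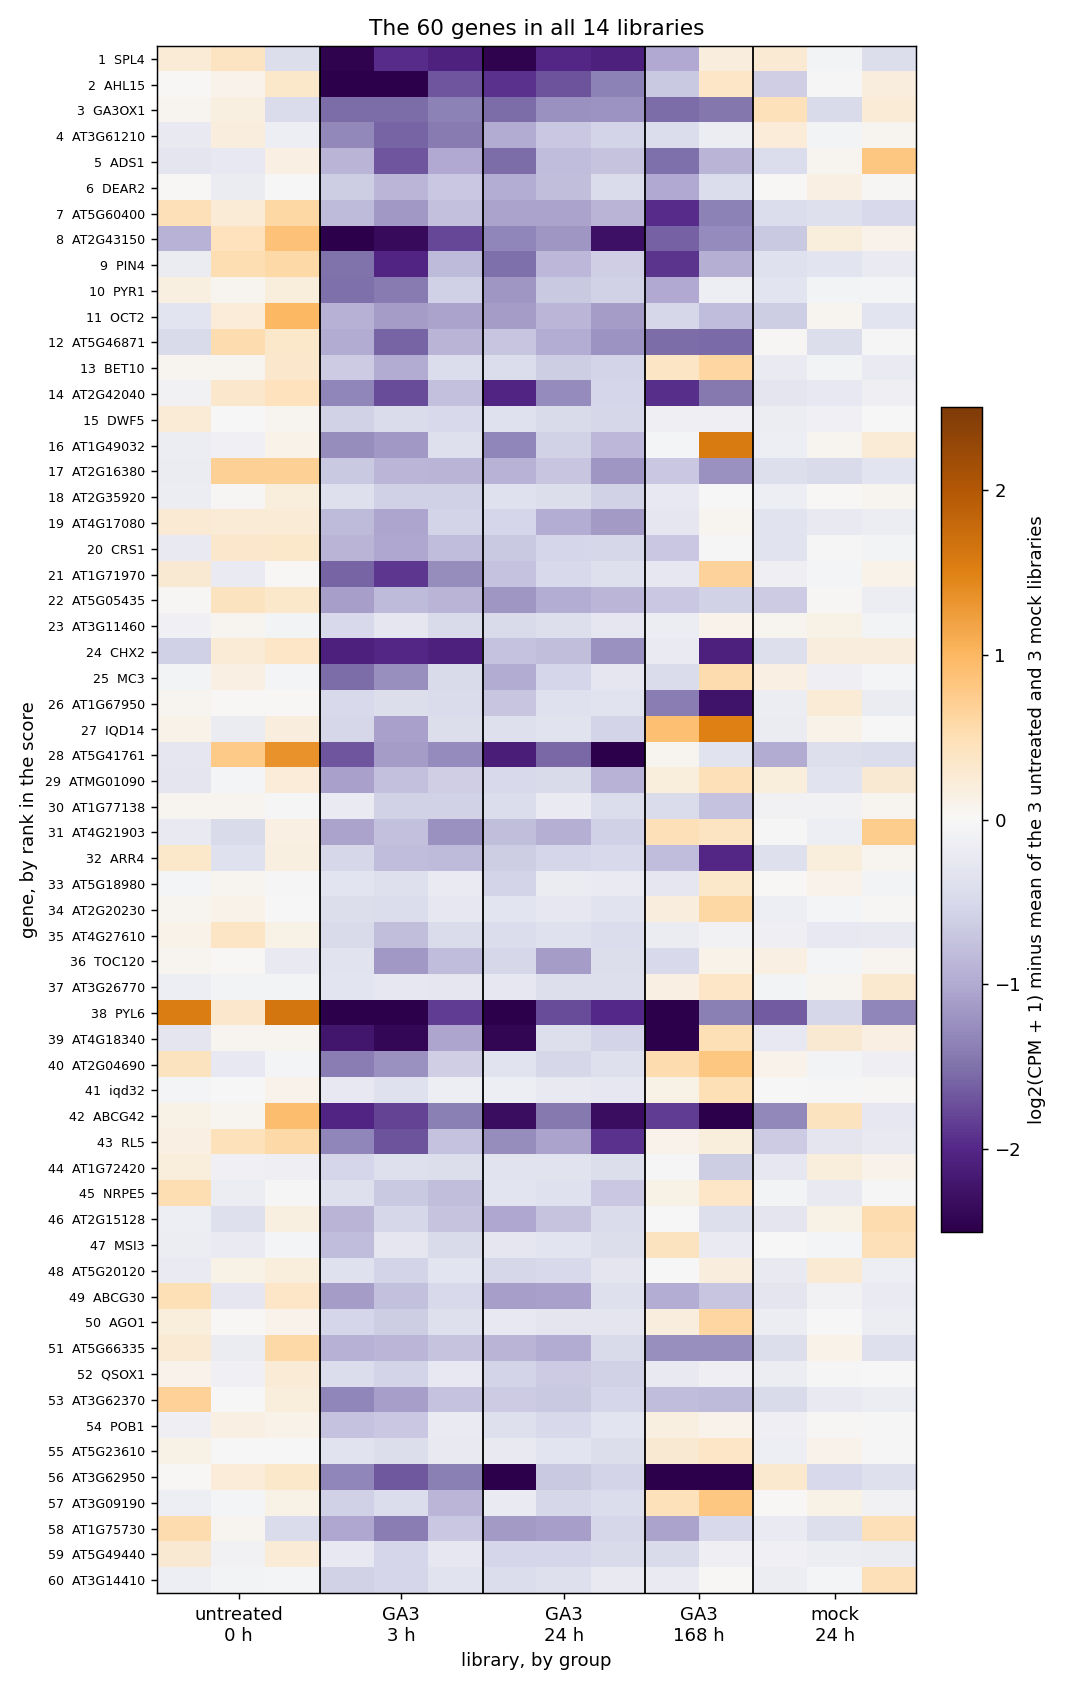
The 60 genes (rows, by rank) in the 14 libraries (columns, by group), coloured by log2(CPM + 1) minus the mean of the 3 untreated and 3 mock libraries, with the colour scale cut at 2.5 in either direction. GA3 libraries of 3 h and 24 h are lower by construction, while the 2 libraries of 168 h range from the lowest to the highest values in their row.

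Some features were not used by the choice. In the reference, 59 were found (56 protein-coding, 2 non-coding RNAs and 1 long non-coding RNA), spread over chromosomes 1 (16), 2 (10), 3 (12), 4 (9) and 5 (12). ATMG01090 was not in it. The median exon length was 1627 bases, against 1818 over 17755 genes above 1 CPM. Reads on the opposite strand made up a median of 0.870% of a member's reads, against 0.837% over genes above 1 CPM. Exceptions were AT5G49440, with 99.3% of its reads on the opposite strand, and AT5G66335, with 36.1%. Of the members, 16 overlapped another gene, 12 of them one on the opposite strand. No shares over all genes are given beside the overlap, biotype and chromosome counts, so these only describe the members.

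Mock at 24 h lay below untreated leaves for some of the members. Both groups stood on the high side of the score, so their difference was not scored, but a gene whose mock level reached the GA3 levels could not be a member, so the choice limits how low mock could lie. In 16 of the 60 members every mock library lay below every untreated one, against a background of 9.66% of the 20077 genes tested, and in 3 members (DEAR2, AT3G26770 and MSI3) every mock library lay above, against 13.9%. PYL6 had a mock mean of 15.0% of the untreated mean (log2 fold change -2.76 ± 0.79 SE, adjusted p = 0.12). Mock levels were also below all untreated levels for PYR1 (81.7% of the untreated mean), PIN4 (63.9%), RL5 (49.5%), AT5G41761 (37.8%), BET10 (80.0%), DWF5 (87.2%) and AGO1 (86.0%).

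After adjustment 1 member fell with mock, and 0 rose, against backgrounds of 0.169% lower and 0.608% higher. That gene was AT5G60400, an uncharacterized protein, at 12.2, 12.6 and 11.7 CPM in mock leaves and 23.8, 20.3 and 25.9 CPM in untreated leaves (log2 fold change -0.98 ± 0.20, adjusted p = 0.0497 by edgeR's quasi-likelihood test). Its call ended without each of the 6 libraries in turn (adjusted p up to 0.213) and under RLE scaling (0.0511). DESeq2 called 6 members lower and 0 higher, against backgrounds of 1.87% lower and 3.94% higher. By edgeR 10 members had an unadjusted p under 0.05 in either direction, against a background of 16.2%. The median log2 fold change was -0.15 over the members and -0.005 over all genes tested.

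Between 3 h and 24 h of GA3, 4 members (6.67%) rose and 0 fell, against backgrounds of 5.68% higher and 5.72% lower. The share of members that rose was thus close to that among all genes tested. The groups of 3 h and 24 h both stood on the low side of the score, so their difference was not scored. A gene that reached the control levels at either time could not be a member, which limits how far the groups could differ. AT1G71970, an uncharacterized protein, stood at 13.3, 15.9 and 17.2 CPM at 24 h, against 6.91, 5.44 and 9.0 CPM at 3 h (log2 fold change 1.29 ± 0.25, adjusted p = 0.00905), and kept its call without each library. The methyltransferase-family gene AT3G61210 stood at 45.3, 55.5 and 61.5 CPM, against 36.3, 29.3 and 33.2 CPM (0.89 ± 0.19, adjusted p = 0.0127). All of its 24 h libraries lay above all of its 3 h libraries. CHX2 had 81 counts over the 3 libraries of 24 h and 1 count over those of 3 h, a ratio of 79.5 with a 95% counting interval of 13.9 to 3180 (adjusted p = 0.0242). AT2G04690, a pyridoxamine oxidase-family gene, had a log2 fold change of 0.81 ± 0.22 (adjusted p = 0.0344).

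For 3 of these 4 genes the call rested on single libraries. That of AT3G61210 ended without GA3 3 h replicate 2 or 24 h replicate 2 (adjusted p up to 0.0558), and that of CHX2 without any of the 3 h libraries or without 24 h replicate 2 (up to 0.0707; log2 fold change 7.84 without 3 h replicate 2). The call of AT2G04690 was lost without 3 h replicates 1 or 2 or any library of 24 h (up to 0.101). DESeq2 called 7 members higher and 0 lower, against backgrounds of 10% higher and 8.78% lower. By edgeR 9 members had an unadjusted p under 0.05 in either direction, against a background of 28.5%. In 8 members every 24 h library lay above every 3 h library and in 1, QSOX1, below, against backgrounds of 9.7% and 24.3%. The choice limits these shares, and those by unadjusted p, since genes at control level at 3 h or 24 h were left out. The median log2 fold change was 0.30 over the members and -0.03 over all genes. SPL4 (0.12 ± 0.48), AHL15 (0.84 ± 0.37, adjusted p = 0.152) and GA3OX1 (adjusted p = 0.319) did not pass.

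The 168 h libraries took no part in the choice, and they placed the 60 genes on both sides. In CPM, library 1 lay at or above the lowest control library for 25 members and at or below the highest GA3 library of 3 h and 24 h for 26, and library 2 for 37 and 18. Both libraries lay at control level for 20 members and both at the GA3 level for 16, and library 2 was above library 1 in 43 of 60. The share of all genes with library 2 above library 1 is not given here. Whether 43 of 60 is particular to the members thus cannot be told. With TMM-scaled library sizes the counts were 23 and 34 for library 1 and 31 and 26 for library 2, with 18 at control level in both and 21 at the GA3 level in both. The median return, as a share of the log2 distance between the 24 h GA3 mean and the control mean, was 71.1% ± 22.9 (SD between the libraries, at 49.0% and 81.4%) and 30.2% with TMM-scaled sizes. Members ranged from -288% to 383%, with 15 under 0% and 20 over 100%, and the distance itself is built from the 24 h and control values that chose the members. TMM multiplied library sizes by 1.08 to 1.13 at 168 h and by 0.893 to 1.01 at 24 h of GA3. It thus lowers levels at 168 h relative to 24 h. Why the factors differed between groups was not tested.

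**Figure D3:**
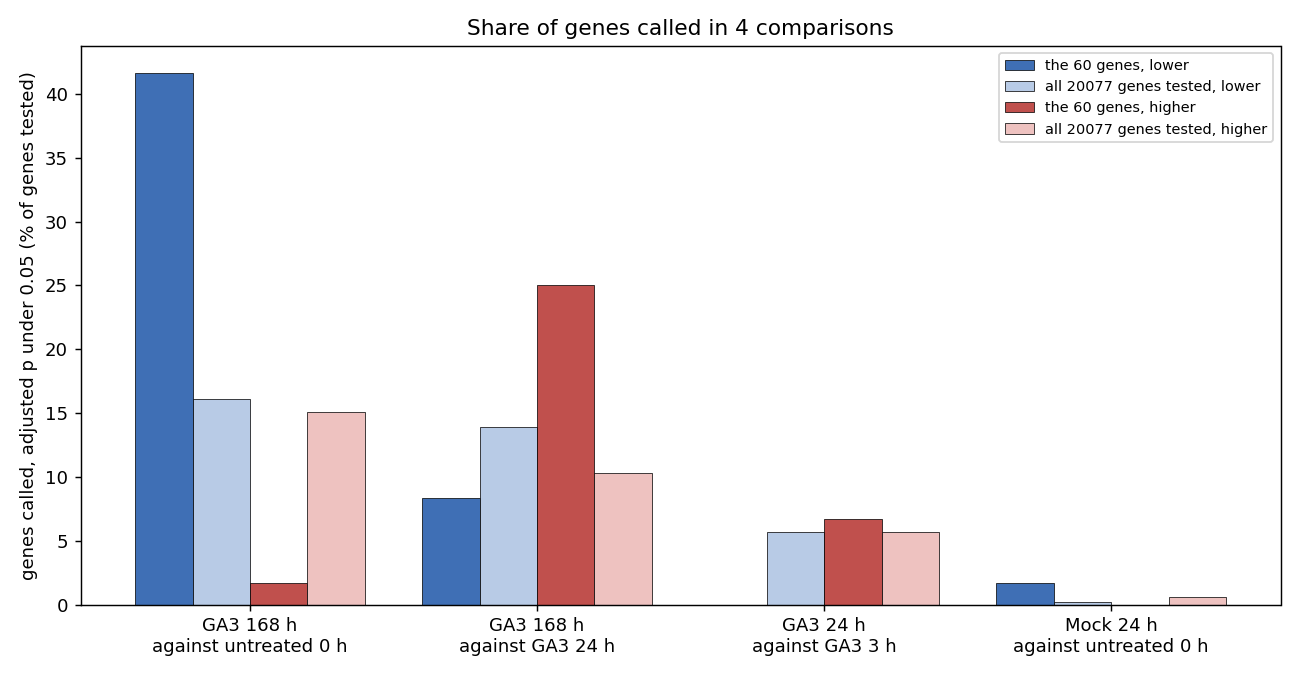
Share of genes called at an adjusted p under 0.05 (y axis, % of genes tested) in 4 comparisons (x axis), lower (blue) and higher (red), for the 60 genes (dark) and for all 20077 genes tested (pale). At 168 h of GA3, 41.7% of the 60 were lower than in untreated leaves, with all genes at 16.1%, and 25% were higher than at 24 h of GA3, with all genes at 10.3%; the untreated and 24 h libraries also helped choose the 60, which favours these directions.

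Against untreated leaves, 25 members fell at 168 h and 1 rose, beside backgrounds of 16.1% lower and 15.1% higher among all genes tested. The median log2 fold change was -0.55 over the members and 0.01 over all genes. The untreated libraries helped choose the members for being high there, so the direction is not independent of the choice. Of the 26 calls, 10 held without each library in turn: AT5G60400, AT5G46871, AT2G42040, AT2G16380, AT1G67950, ARR4, ABCG42, AT5G66335, AT3G62370 and AT3G62950. There were 15 calls (13 lower, 2 higher) without 168 h replicate 1, 15 (all lower) without 168 h replicate 2 and 16 in a fit of these groups alone.

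AT5G60400 stood at 3.59 and 5.94 CPM at 168 h of GA3, below all 12 libraries of the choice, against 23.8, 20.3 and 25.9 CPM untreated (log2 fold change -2.49 ± 0.25, adjusted p = 0.000339). The RNA-binding-family gene AT1G67950 stood at 10.1 and 5.16 CPM, against 29.7, 28.3 and 28.5 CPM untreated (-2.10 ± 0.30, adjusted p = 0.000842; -2.72 without 168 h replicate 1). AT3G62950, of the thioredoxin superfamily, stood at 2.68 and 1.77 CPM, against 24.4, 28.7 and 31.2 CPM untreated (-3.85 ± 0.64, adjusted p = 0.00174). These 3 genes were lower at 168 h than in any GA3 library of 3 h or 24 h. AT5G66335, an uncharacterized gene, had 0 counts at 168 h and was at least 25.1-fold lower than in untreated leaves (floor of 3 counts over the group). AT3G62370, a heme-binding protein (-1.35 ± 0.22, adjusted p = 0.00144), and the putative membrane lipoprotein AT5G46871 (-3.39 ± 0.61, adjusted p = 0.00236) also fell. AT5G46871 had 17 counts over both libraries of 168 h and 245 over the untreated ones.

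Hormone genes were among those that fell by 168 h. GA3OX1 had 1 count over both libraries of 168 h, against 120 over the 3 untreated ones, a level 76.7-fold lower with a 95% counting interval of 13.5 to 3053 (adjusted p = 0.00761). Its call ended without 168 h replicate 1 (adjusted p = 0.0541; fitted log2 -5.23, and -8.30 without 168 h replicate 2). PYL6 stood at 0.227 and 2.01 CPM (-4.22 ± 1.01, adjusted p = 0.00957), with fits of -6.47 without 168 h replicate 2 and -3.38 without replicate 1, where the call ended (adjusted p = 0.0526). PIN4 stood at 26.1 and 52.0 CPM (-1.93 ± 0.44, adjusted p = 0.00718; -2.52 without 168 h replicate 2, and no call without replicate 1, adjusted p = 0.0601). ARR4 stood at 62.8 and 26.9 CPM (-1.56 ± 0.33, adjusted p = 0.00554; -2.34 without 168 h replicate 1). PYR1, at 41.7 and 76.8 CPM, did not pass (-0.88 ± 0.33, adjusted p = 0.0607).

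Transport and wall genes included further falls, but not all the carriers fell. OCT2 (log2 fold change -2.35 ± 0.85), CHX2 (-1.54 ± 1.03) and AT4G21903 (0.50 ± 0.32) were not called. ABCG42 stood at 19.6 and 10.4 CPM at 168 h, against 80.5, 77.1 and 140 CPM untreated (log2 fold change -2.92 ± 0.57, adjusted p = 0.00357), and the extensin-like AT2G43150 at 83.1 and 106 CPM, against 136, 350 and 470 CPM (-1.98 ± 0.52, adjusted p = 0.0147). The call of AT2G43150 ended without either library of 168 h (up to 0.0839). Smaller or less stable falls were those of ADS1 (-1.44), DEAR2 (-0.88), ABCG30 (-1.73), AT1G75730 (-1.11), AT1G77138 (-1.97, and -2.91 without 168 h replicate 1), AT5G05435 (-1.32), CRS1 (-0.71), AT4G17080 (-0.57), AT4G27610 (-0.56), QSOX1 (-0.47) and DWF5 (-0.43). Each of these 11 lost its call without at least 1 library, with adjusted p up to 0.27. AT2G42040, a WRC protein (-2.26), and AT2G16380, a Sec14p-like gene (-1.64), kept theirs.

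IQD14 (AT2G43680) was the 1 member that rose above untreated leaves. It stood at 158 and 242 CPM at 168 h, against 89.9, 73.6 and 95.1 CPM untreated (log2 fold change 1.01 ± 0.22, adjusted p = 0.0057), and both libraries of 168 h were above all 12 libraries of the choice. The call ended without 168 h replicate 2 (0.66, adjusted p = 0.101). Against 24 h of GA3, at 64.2, 65.9 and 56.6 CPM, the log2 fold change was 1.43 ± 0.22 (adjusted p = 0.00192), and this call held without each library.

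Against 24 h of GA3, 15 members rose and 5 fell at 168 h, beside backgrounds of 10.3% higher and 13.9% lower. The 24 h libraries helped choose the members for being low there, so the direction is again not independent of the choice, and the 168 h libraries are those of the comparison with untreated leaves. The median log2 fold change was 0.22 over the members and 0.04 over all genes. SPL4 stood at 3.23 and 8.74 CPM, against 0.562, 1.14 and 1.03 CPM at 24 h (2.43 ± 0.50, adjusted p = 0.00628). AHL15 stood at 13.9 and 29.6 CPM, against 5.29, 6.26 and 8.31 CPM (1.44 ± 0.39, adjusted p = 0.0214). Against untreated leaves neither passed (SPL4 -0.67 ± 0.49, AHL15 -0.45 ± 0.40). GA3OX1 was at 0 and 0.0491 CPM at 168 h and did not pass against 24 h (adjusted p = 0.196).

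Of the 15 rises, all but that of IQD14 lost their call without 168 h replicate 2, where 1 member was higher and 2 were lower. Among them were SPL4 (1.55, adjusted p = 0.114), AHL15 (0.79, adjusted p = 0.298), BET10 (0.68, adjusted p = 0.0893) and AT1G49032 (0.60, adjusted p = 0.382) and the MATE gene AT4G21903 (1.26, adjusted p = 0.094). AHL15 also lost its call without 24 h replicate 1 or 2 (adjusted p up to 0.0606). Members called were 12 without 24 h replicate 2, 11 without 24 h replicate 3 and 4 in a fit of these groups alone. AT3G26770, of the NAD(P)-binding Rossmann-fold superfamily, had 24 counts at 168 h and 2 at 24 h, a ratio of 18.6 with a counting interval of 4.63 to 163 (adjusted p = 0.0131, and 0.0985 without 168 h replicate 2; fitted log2 6.47 without 24 h replicate 1). AT5G41761, AT2G20230, AT2G04690, RL5, AGO1, AT5G23610, AT3G09190 and AT4G17080 were the other members that rose, with log2 fold changes of 0.42 to 2.12 (AT5G41761 2.12, and 2.79 without 24 h replicate 2), and each lost its call without at least 3 of the 5 libraries.

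The falls against 24 h of GA3 were those of AT1G67950 (log2 fold change -1.65 ± 0.29, adjusted p = 0.00345), AT3G62950 (-2.64 ± 0.61, adjusted p = 0.0104), AT5G60400 (-0.98 ± 0.23, adjusted p = 0.0115), ARR4 (-0.98 ± 0.33, adjusted p = 0.0478) and AT5G66335, at least 5.58-fold lower. AT1G67950 kept its call without each library, with -2.26 without 168 h replicate 1. The others lost theirs without 168 h replicate 2 (AT3G62950 0.109, AT5G66335 0.0616, ARR4 0.285) or 168 h replicate 1 (AT5G60400 0.0851). ARR4 also lost it without 24 h replicate 2 or 3 (up to 0.116), and stood at -1.77 without 168 h replicate 1.

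**Figure D4:**
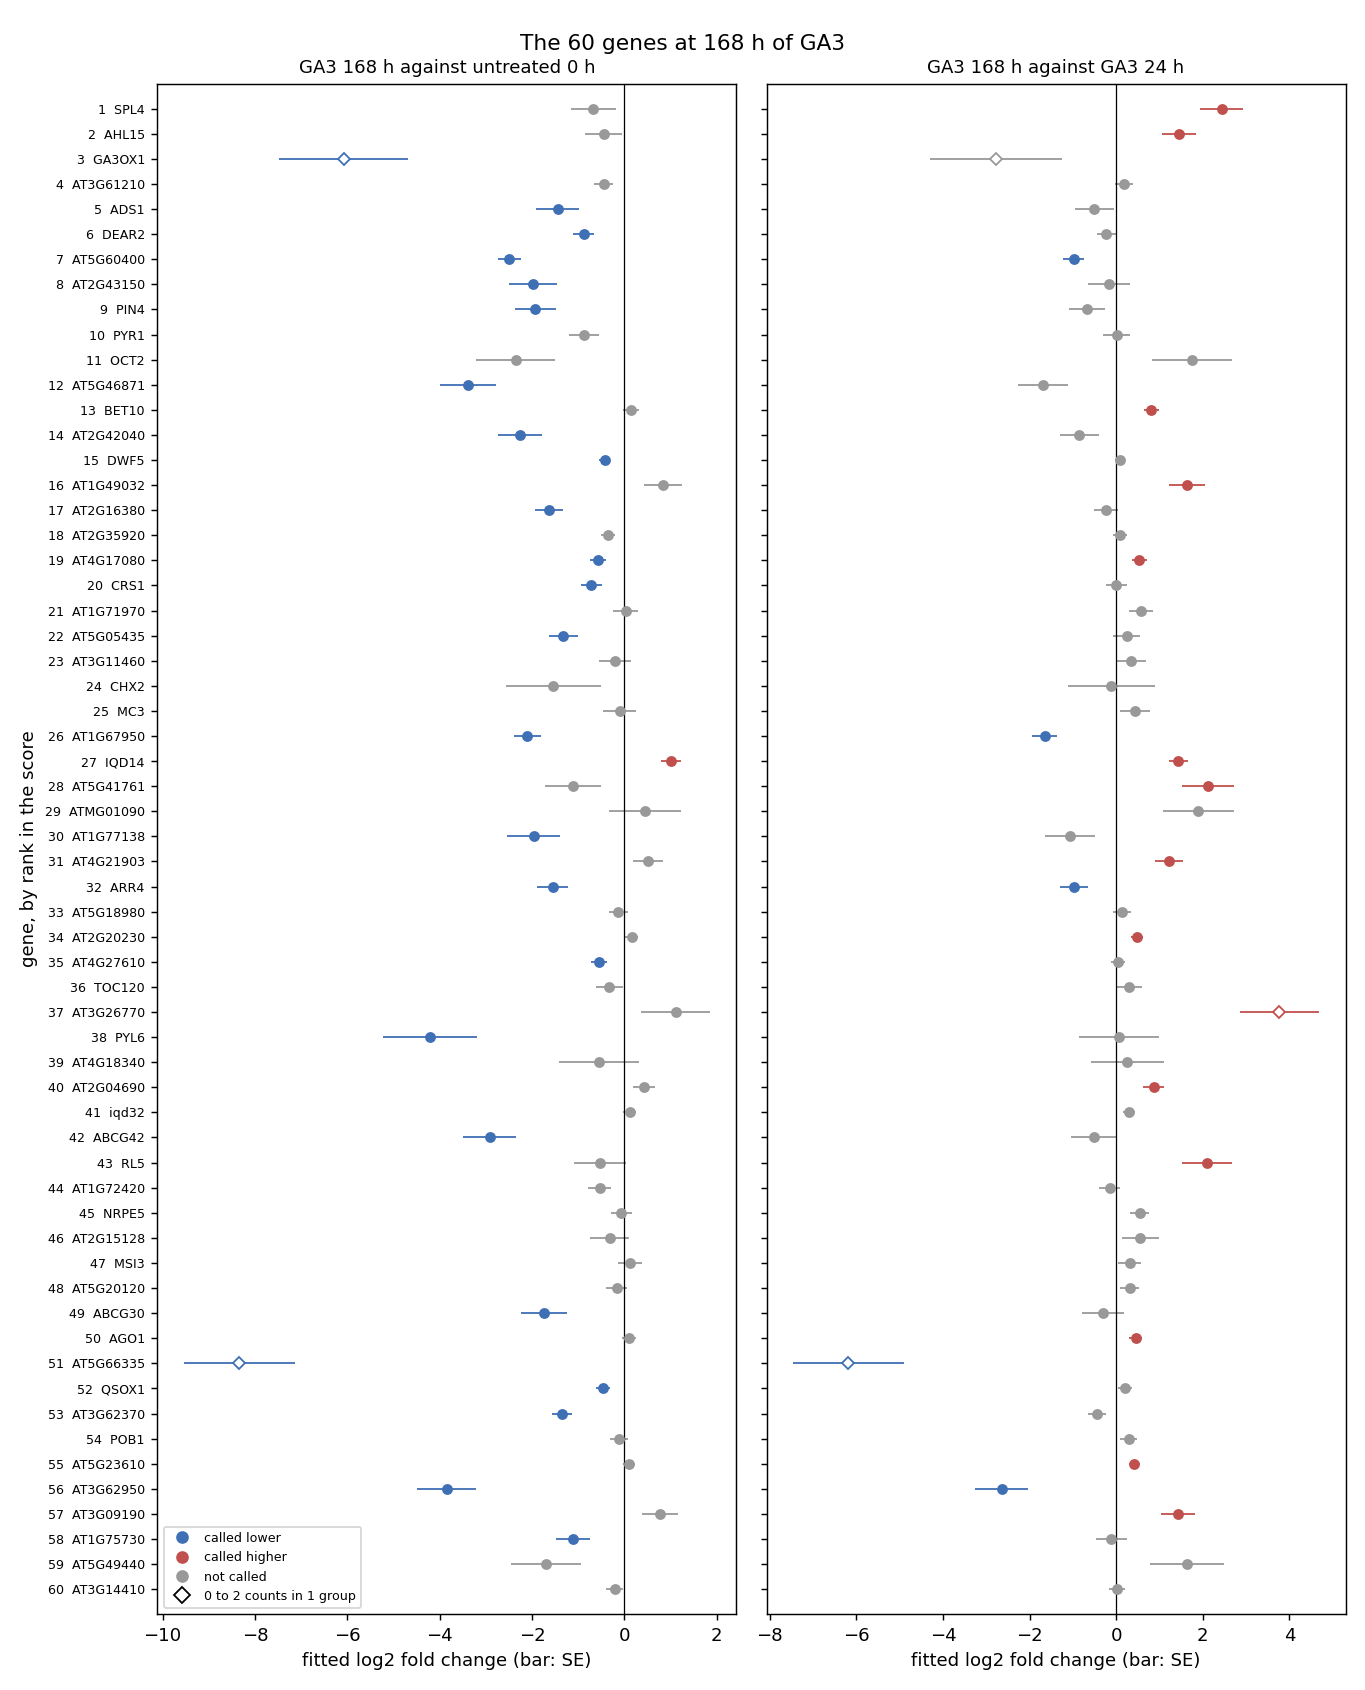
Fitted log2 fold changes (x axes, bars are SE) of the 60 genes (rows, by rank) at 168 h of GA3 against untreated leaves (left) and against 24 h of GA3 (right), with colour giving the call. Both panels share the 168 h libraries. On the left 25 genes are called lower and 1, IQD14, higher; on the right 5 are lower and 15 higher, SPL4 and AHL15 among them.

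Tissue markers moved at 168 h beside these values, and their part in them was not tested. In bulk leaves, fewer cells of a type and less RNA per cell cannot be told apart. The 6 guard cell markers, all above 1 CPM, summed to 643 to 662 CPM at 168 h and to 2206 to 5245 CPM in the other groups. That sum was mostly TGG1, which averaged 529 CPM at 168 h and 4196 CPM in untreated leaves. Against untreated leaves TGG1 and HT1 were lower, KAT1 was higher (98.5 CPM at 168 h and 15.0 CPM untreated), and FAMA, MYB60 and SLAC1 were not called. The 5 xylem markers summed to 14 to 38.9 CPM, against 73.3 to 187 CPM elsewhere (4 of 5 lower), and the 6 epidermis markers to 315 to 354 CPM, against 392 to 922 CPM (6 of 6 lower). Mesophyll markers summed to 19370 to 25150 CPM and to 22260 to 47770 CPM elsewhere (5 of 6 lower), phloem markers to 758 to 1148 CPM and to 596 to 965 CPM (2 of 5 lower). Shoot meristem, flower and seed markers summed to at most 1.38 CPM for each list in all libraries, with CLV3, WUS, LFY, CRU3, OLEO1 and AT2S3 at 0 counts, as were the root hair genes RHD6, COBL9 and EXP7. The other 2 root markers, SHR and PHT1;4, averaged over 1 CPM, and the root list summed to 9.09 to 22.1 CPM in all libraries. At 168 h against untreated leaves, 1 of these 2 was lower and 1 higher. Of 11 tested senescence genes 5 were higher than in untreated leaves at 168 h and 0 lower. Beside all these list counts, 16.1% of the 20077 genes tested were lower at 168 h than in untreated leaves and 15.1% were higher.

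The other genes of gibberellin metabolism and signalling were not members, apart from GA3OX1. At 168 h against untreated leaves, the backgrounds among all genes tested were 16.1% lower and 15.1% higher. Of the 8 tested synthesis genes GA3OX1 alone fell in this comparison and 0 rose. GA20OX1, the enzyme before it, stood at 1.10, 0.449 and 0.0849 CPM at 3 h, 0.750, 0.237 and 0.214 CPM at 24 h and 0.182 and 0.295 CPM at 168 h of GA3, against 3.28, 0.617 and 1.5 CPM in mock and 0.810, 1.42 and 0.646 CPM in untreated leaves, so the groups overlapped. Of 4 tested inactivation genes, GAMT2, a gibberellin methyltransferase (235 counts over both 168 h libraries and 4 over the 3 untreated ones, adjusted p = 0.00338), and the oxidase GA2OX2 rose (2.56 ± 0.61, adjusted p = 0.00951; 0.78 and no call without 168 h replicate 2, 3.33 without replicate 1).

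Among 9 tested perception and DELLA genes, 4 fell and 0 rose at 24 h against 3 h of GA3. Backgrounds there were 5.72% lower and 5.68% higher. At 168 h against untreated leaves, with backgrounds of 16.1% lower and 15.1% higher, 0 of the 9 fell. The receptor gene GID1C (0.84 ± 0.22, adjusted p = 0.0148) and the DELLA gene RGA (0.82 ± 0.28, adjusted p = 0.0441) rose in that comparison. Both calls ended without 168 h replicate 2 (adjusted p up to 0.324), and that of RGA without any other library too. Of 9 tested DELLA-induced targets 4 fell: GA3OX1, BHLH137 (-5.43 ± 0.86, adjusted p = 0.00139), BHLH154 (-3.91 ± 0.61, adjusted p = 0.00128) and the MYB-like AT3G11280 (-1.61 ± 0.37, adjusted p = 0.00785, no call without 168 h replicate 2, adjusted p = 0.0681). Of 8 tested GASA peptide genes 5 fell and 1 rose. GASA9 (-3.28) and GASA14 (-5.97, and -8.14 to -5.14 with 1 library left out) kept their calls without each library. Those of GASA1, GASA4, GASA6 and the rise of GASA3 each ended without at least 1 library of 168 h (adjusted p up to 0.2), with fits of -3.75 to -1.55 for GASA1, -3.57 to -1.85 for GASA4 and -4.75 to -2.61 for GASA6. GID1A stood at 19.3 to 23.6 CPM at 3 h, 10.7 to 11.7 CPM at 24 h and 10.6 and 17.6 CPM at 168 h of GA3, against 24.7 to 37.6 CPM in mock and 16.7 to 20.9 CPM in untreated leaves. Its 3 h libraries reached above untreated ones, which kept it outside the 60. SCL3 overlapped untreated leaves too (10.3 CPM in GA3 24 h replicate 1, 5.61 CPM in untreated replicate 3). So did GID1B (9.63 CPM in GA3 3 h replicate 2, 7.90 CPM in untreated replicate 2), which also overlapped mock (4.01 to 5.80 CPM). XERICO stood at 4.69 to 9.34 CPM at 3 h and 24 h of GA3, below all untreated libraries (12.8 to 15.0 CPM). It was outside because its mock libraries, at 5.99 to 9.70 CPM, overlapped those of GA3.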

How the data were processed

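RNA sequencing of 14 libraries gave raw read counts per gene, deposited by the authors for 34218 genes, made with STAR 2.7.7a on TAIR10 per the submitters' processing notes, with an annotation not given in the sources used here. The strand column holding most counts was used, as the opposite strand held 4.86% to 5.51% of reads. Total reads ranged from 20448913 to 26537437 (median 22235115), 88.8% to 95.8% of them in genes. RefSeq's TAIR10.1 annotation gave names, coordinates and sequences.

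The members, gene lists and tests were chosen with earlier results of these data known. All libraries were fitted together with edgeR 4.0.16 (R 4.3.3; TMM, filterByExpr, quasi-likelihood F test) and p-values adjusted by Benjamini-Hochberg over 20077 genes; a call is an adjusted p under 0.05. All 60 members passed the filter on low counts. SE is the log2 fold change over the square root of F. The 168 h group of 2 shares its spread with the others. Counting intervals are exact and cover counting error only. Alternatives were RLE factors, no filter, DESeq2 1.42.0, fits of 2 groups, a replicate block and each library left out. Genes were named by a rule (ranks 1 to 20 and those by the threshold, the smallest p values, the gene lists, neighbouring members); PYL6, AGO1 and the other members named outside it were chosen after their values were seen. The fit was tried on simulated counts in which genes changed in the 168 h group only, and its outcome is not reported here. P-values set each difference against the spread between these libraries.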

Additional observations from a re-analysis of the deposited data

How the results depend on the processing

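Membership fell to between 21 and 56 of the 60 when 1 library was left out. Members called at 168 h against untreated leaves were 26 as reported, 16 in a fit of the 2 groups alone and 15 to 27 with 1 library left out. At 168 h against 24 h of GA3 they were 20, 4 and 3 to 16. At 24 h against 3 h of GA3 they were 4, with 7 by DESeq2 and 1 to 4 with 1 library left out. For mock against untreated leaves they were 1, with 0 under RLE factors, without the filter, with the replicate block and with the 2 groups alone, 6 by DESeq2, and 0 to 1 with 1 library left out. Over all genes the calls with 1 library left out were 2511 to 6342, 898 to 5325, 749 to 2128 and 4 to 233 in the same order, against 6272, 4856, 2290 and 156 as reported. Fits of the 2 groups alone called 2096 genes at 168 h against 24 h and 1059 at 24 h against 3 h, and DESeq2 called 3761 genes at 24 h against 3 h and 1161 for mock. The median return at 168 h was 71.1%, 30.2% with TMM-scaled sizes, and 49.0% to 81.4% with 1 library left out. With 1 library left out, log2 fold changes of the named genes changed sign where neither value was called, ranging between -0.134 and 0.407 for SPL4 at 24 h against 3 h of GA3 (0.12 as reported), between -0.448 and 0.018 for SPL4 with mock (-0.20) and between -0.119 and 0.543 for GA3OX1 with mock (0.23). With 1 library of 168 h left, that library is assumed to vary like the other groups. The cause of these changes was not tested. Deviations of same-numbered libraries from their group means correlated at r from -0.283 to 0.31, over 0.1 in 10 of 26 pairs. Pairs with different numbers were not compared, so these values cannot decide whether replicate numbers pair libraries. The main fits treated libraries as unpaired. With the replicate block members called were 23, 15, 5 and 0 in the order above. AHL15 then passed at 24 h against 3 h (adjusted p = 0.0326) and ARR4 at 168 h against 24 h did not (adjusted p = 0.0621). Levels under about 1 CPM rest on few counts, which limits GA3OX1, CHX2, OCT2, AT3G26770, AT5G66335 and AT5G49440, among others. At 168 h, AT1G77138 had 12 counts over both libraries, AT5G46871 17 and PYL6 46. The rise of GASA3 rests on 25 counts at 168 h and 1 in untreated leaves.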
